A study of Mus musculus with 8 samples.

Results

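The genes described here take up L-arginine or carry it towards polyamines and nitric oxide. They were chosen as *Arg1*, *Arg2*, *Nos2*, *Slc7a2*, *Ass1*, *Odc1*, *Oaz1*, *Sat1*, *Srm* and *Sms*, and a probe set counted only where its sole gene symbol was 1 of these names. Of the 10 genes, 8 had a probe set of their own, and together they had 13 probe sets of the 22626 tested. The tested probe sets with 1 symbol stood for 12393 genes. *Ass1* and *Sms* had none, since the 1 probe set of *Ass1* and the 3 probe sets of *Sms* each also matched another symbol, so argininosuccinate synthase and spermine synthase are not described. The rule for probe sets used gene symbols and no signal, and the genes were picked with earlier results of these data known.

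RNA was measured on 8 Affymetrix mouse arrays, 1 per culture of splenic CD11b+Gr-1+ cells, immature myeloid cells (IMCs), from 4 male *Tff2*-/- mice on a C57BL/6 background. The animals, 16 weeks old, drank 3% dextran sulphate sodium (DSS), which injures the colon, for 5 days and were killed 14 days after that. Sorted cells of each mouse were divided and kept for 7 days either with GM-CSF (Csf2, a myeloid growth factor, 5 nM in the labels, though the methods state a lower dose by mass) alone or with GM-CSF plus 3 µM recombinant mouse Tff2 (rTFF2), a secreted trefoil peptide. Both groups (n = 4 cultures each, mice 1 to 4) therefore shared the *Tff2* deletion and the DSS treatment, and the cells came from a sort of whole spleen followed by a week in culture. The comparison asks which transcripts differ when rTFF2 is added to the growth factor.

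Arginine enters myeloid cells through cationic amino acid transporters such as *Slc7a2*. Arginases split it to urea and ornithine, whereas inducible nitric oxide synthase turns the same substrate into nitric oxide and citrulline, and both routes are known for restraining T cells by using up arginine or by making nitric oxide. Ornithine decarboxylase starts polyamine synthesis from ornithine, antizyme holds that enzyme in check, and acetylation by *Sat1* marks polyamines for breakdown and export.

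The starts of *Odc1* and *Oaz1* are shown because *Odc1* is the polyamine enzyme that passed the test here and *Oaz1* encodes its inhibitor. The windows are the 250 bases upstream of the RefSeq transcription start on GRCm38.p6, 5′ to 3′ on the gene's strand, at chr12:17544623-17544872 (plus strand) for *Odc1* and chr10:80826406-80826655 (plus strand) for *Oaz1*. Capitals mark GC boxes (GGGCGG on either strand) in *Odc1* and a CCAAT box (CCAAT on either strand) in *Oaz1*.
Odc1: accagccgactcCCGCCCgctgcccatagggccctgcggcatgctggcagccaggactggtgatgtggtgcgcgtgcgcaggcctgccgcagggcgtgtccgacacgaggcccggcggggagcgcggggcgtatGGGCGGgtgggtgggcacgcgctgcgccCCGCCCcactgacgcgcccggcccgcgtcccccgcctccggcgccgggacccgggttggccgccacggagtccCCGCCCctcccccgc
Oaz1: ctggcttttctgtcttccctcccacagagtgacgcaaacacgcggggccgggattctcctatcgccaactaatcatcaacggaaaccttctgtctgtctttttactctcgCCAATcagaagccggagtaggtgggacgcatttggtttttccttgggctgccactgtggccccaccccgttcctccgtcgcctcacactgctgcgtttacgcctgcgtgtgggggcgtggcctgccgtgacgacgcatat
The *Odc1* window held 4 GC boxes, 1 on the plus and 3 on the minus strand, and 80% of its bases were G or C. The *Oaz1* window held 1 CCAAT box and no GC box, with 58% G or C, against a median of 52.4% over 32851 promoters. GC boxes occurred in 32.7% of those promoters and CCAAT boxes in 33.8%. Neither window held the letters TATAAA (12.4% of promoters) or CACGTG (6.02%) on either strand. These matches describe letters in a window and were not tied to the measurements.

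Values are GCRMA signals on the log2 scale, so a difference of 1 is a doubling of signal. Array medians were 4.09 to 4.20, and 7332 to 7418 genes per array lay above a background level of 3.33. This was the 95th percentile of the signals of 35 genes that mark tissues outside the blood. One of these genes, *Mbp*, stood at 7.95 to 8.62, and without it the level was 3.09, which left the same 12 of 13 member probe sets above it. Transcripts of *Tff2* itself were at background, between 2.22 and 2.62, in all 8 cultures of these deleted mice.

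**Figure D1:**
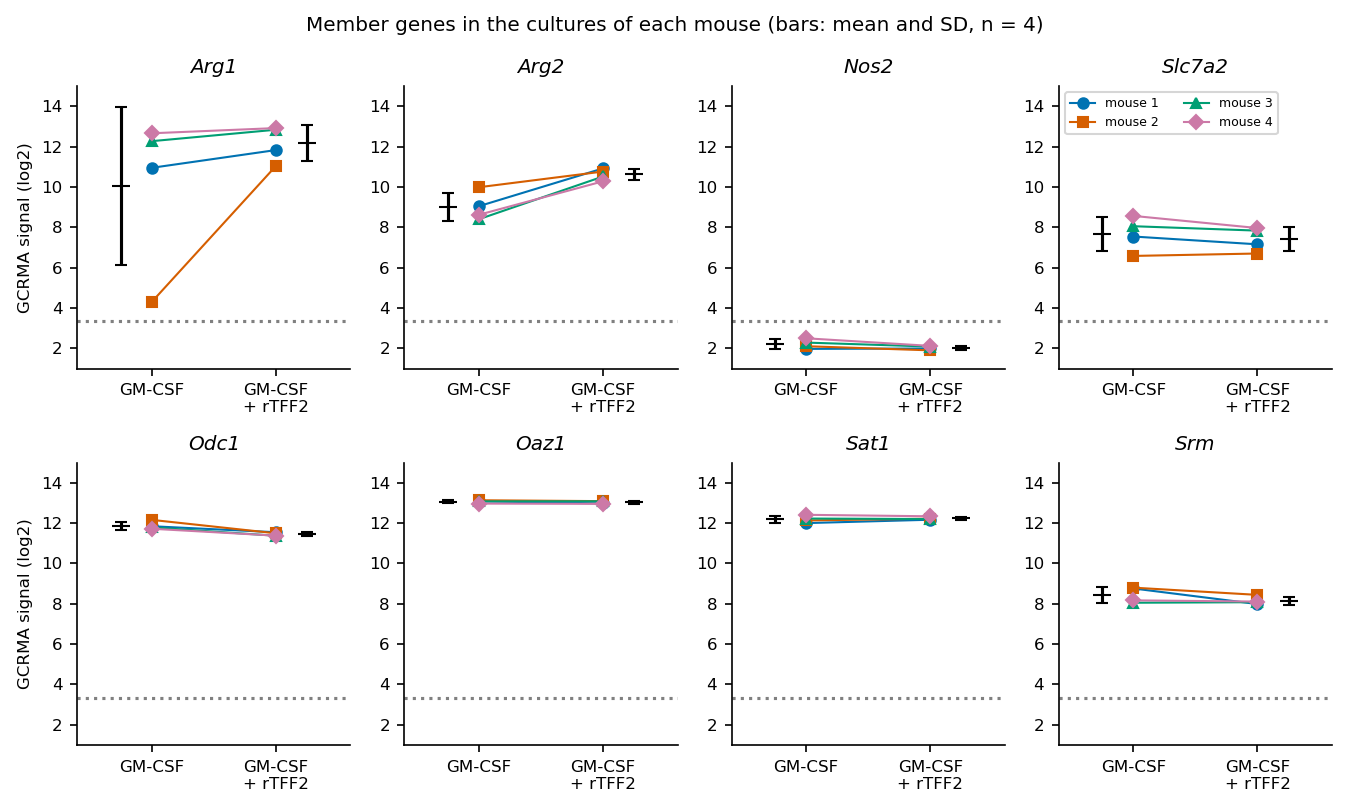
GCRMA signal (log2) of the brightest probe set of each of the 8 genes in every culture, GM-CSF alone left and GM-CSF plus rTFF2 right. Points are mice 1 to 4 joined by mouse, bars are the mean and SD, and the dotted line is the background level of 3.33; *Arg2* was higher in 4 of 4 mice without overlap, and *Arg1* of mouse 2 went from 4.30 to 11.04.

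Of the member probe sets, 6 of 13 changed with rTFF2 by limma with the mouse as a block, both *Arg2* probe sets upwards and 2 each of *Slc7a2* and *Odc1* downwards. Of all probe sets, 25.7% passed the same test (adjusted p under 0.05), 13.7% upwards and 12% downwards. The 6 came from *Arg2*, *Slc7a2* and *Odc1* alone, each counted more than once. With each of the 8 genes read on its brightest probe set, only *Arg2* and *Odc1* passed, beside 27.7% of all genes. Without the block 4 of 13 passed, both *Arg2* probe sets upwards and 2 of *Odc1* downwards, where 21.8% of all probe sets passed, 11.7% upwards and 10.1% downwards. In 4 of 4 mice 3 member probe sets were higher and 4 lower, beside 21.5% and 23.5% of all probe sets. Groups did not overlap for 3 of the 13, against 25.5% of all probe sets. The median log2 change of the 13 was -0.19, beside -0.02 over all probe sets.

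Arginase 2, the mitochondrial arginase, showed the largest change among members that passed. Its probe set 1438841_s_at read 9.05, 9.98, 8.40 and 8.62 in mice 1 to 4 with GM-CSF alone, and 10.92, 10.76, 10.52 and 10.28 with rTFF2. Every rTFF2 culture lay above every control culture. *Arg2* rose by 1.61 on the log2 scale (SE 0.20, limma adjusted p = 0.0018), a 3.05-fold difference, with means of 9.01 ± 0.70 and 10.62 ± 0.28 (SD, n = 4). The rise was smallest in mouse 2, at 0.78, whose control culture was already the highest, and 1.66 to 2.12 in the other mice.

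The other *Arg2* probe set, 1418847_at, read 8.98, 9.73, 8.43 and 8.27 in the controls and 10.79, 10.78, 10.52 and 10.22 with rTFF2. It gave the same picture of separate groups, with a 3.30-fold rise (log2 1.72, SE 0.17, limma adjusted p = 7.2e-04). Both probe sets read the same gene and the same RNA, so they are 2 readings and not 2 results. *Arg2* was called in all 16 alternative treatments of the first probe set and all 15 of the second.

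Arginase 1, the cytosolic arginase, was higher with rTFF2 in 4 of 4 mice, but the size rested on mouse 2. Its probe set 1419549_at read 10.95, 4.30, 12.27 and 12.66 in the control cultures of mice 1 to 4, and 11.83, 11.04, 12.83 and 12.91 with rTFF2. The control culture of mouse 2 was lower than any other and nearest to background, and the groups overlapped. The difference of 2.11 (SE 1.01, 95% interval -0.28 to 4.50) did not pass (limma adjusted p = 0.18). The changes were 0.88, 6.74, 0.57 and 0.26 in mice 1 to 4. Without mouse 2 the difference was 0.57 (SE 0.13, 95% interval 0.26 to 0.88), a 1.48-fold rise that passed with the block (limma adjusted p = 0.025, 3 mice, 22.1% of all probe sets called) and not without it (0.42). Over the 16 alternatives limma's adjusted p lay between 0.025 and 0.46. The difference between 3′ and 5′ probe sets of *Actb*, a sign of RNA integrity, did not overlap between the groups. It was 0.42 to 0.62 in the controls and 0.66 to 0.74 with rTFF2, the 0.42 and the 0.74 both in mouse 2. With it as a covariate beside the block the direction of *Arg1* turned, to -2.68 (limma adjusted p = 0.060). That fit cannot separate the *Actb* measure from rTFF2.

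The spread of *Arg1* among the control cultures, an SD of 3.90, ranked 1 of 12393 genes. In the rTFF2 cultures its SD of 0.89 ranked 35, against medians over genes of 0.13 and 0.12 in the controls and rTFF2 cultures. The order of mice in the controls was 2, 1, 3, 4 from lowest to highest for both *Arg1* and the *Slc7a2* probe set 1422648_at. *Arg2*, by contrast, was highest in mouse 2.

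Inducible nitric oxide synthase, *Nos2* (1420393_at), was not above background on any of the 8 arrays. It read 1.97, 2.10, 2.28 and 2.50 in the controls and 1.99, 1.90, 2.09 and 2.12 with rTFF2. No fold is given, and the limma difference of -0.19 (adjusted p = 0.14) describes background signal.

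**Figure D2:**
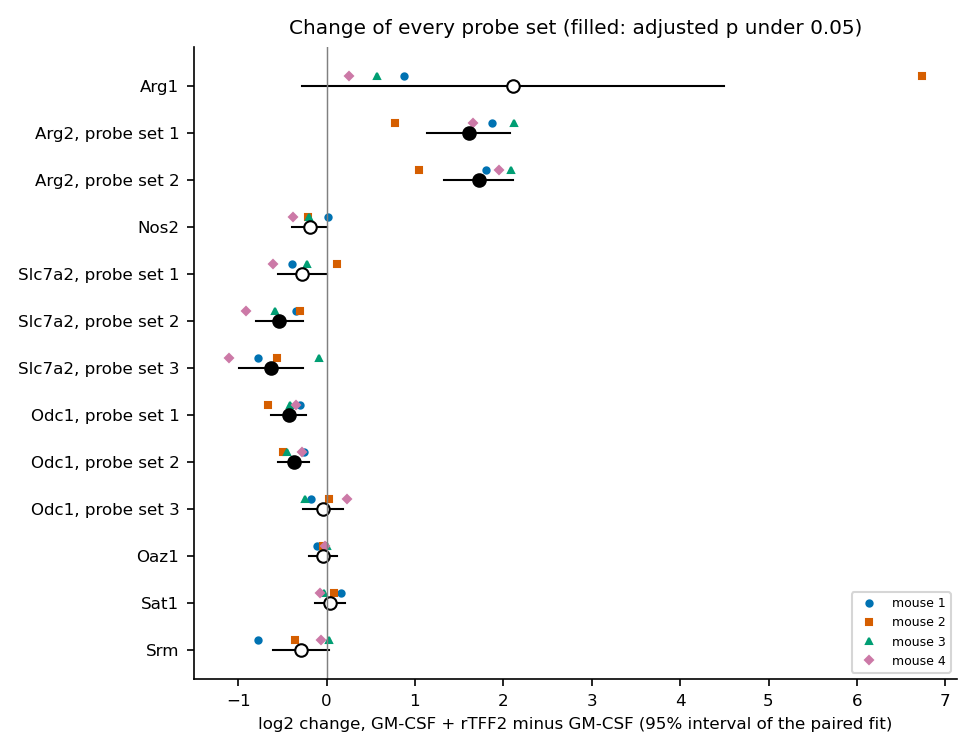
Log2 change (rTFF2 cultures minus control cultures) of each member probe set, with coloured points for mice 1 to 4 and a circle with its 95% interval for the limma fit, filled where the adjusted p was under 0.05. Probe sets of a gene follow their order in the text except that *Slc7a2* 1422648_at comes first; the *Arg2* intervals lie above 0, and mouse 2 stands apart for *Arg1* at 6.74.

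The arginine transporter *Slc7a2* was lower with rTFF2 on 2 of its 3 probe sets. Probe set 1426008_a_at read 4.95, 4.44, 5.92 and 6.34 in the controls and 4.60, 4.14, 5.34 and 5.43 with rTFF2. The groups overlapped, but every mouse went down. It fell by 0.53 (SE 0.11), which passed with the mouse as a block (limma adjusted p = 0.013) and not without it (0.43, with a range of 0.010 to 0.43 over 15 alternatives). The call was lost in 6 of 15 alternatives, among them without mouse 3 (limma adjusted p = 0.058).

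Probe set 1450703_at, the dimmest of the 3, read 4.00, 3.48, 3.81 and 4.59 in the controls and 3.23, 2.92, 3.72 and 3.48 with rTFF2. It lay above background on 6 of 8 arrays and fell by 0.63 (SE 0.15, limma adjusted p = 0.024, 0.093 without the block), a call lost in 9 of 15 alternatives. The brightest, 1422648_at, read 7.54, 6.58, 8.05 and 8.56 in the controls and 7.15, 6.70, 7.83 and 7.96 with rTFF2, and was higher in mouse 2 and lower in the other mice. Its difference of -0.27 (SE 0.12, limma adjusted p = 0.14) did not pass. Without mouse 2 it was -0.40 and passed (limma adjusted p = 0.034, with a range of 0.019 to 0.69 over 16 alternatives).

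*Odc1*, the first enzyme of polyamine synthesis, was lower on 2 of its 3 probe sets. Probe set 1437711_x_at read 11.84, 12.16, 11.78 and 11.72 in the controls and 11.54, 11.49, 11.37 and 11.37 with rTFF2. All rTFF2 cultures lay below all control cultures. *Odc1* fell by 0.43 on the log2 scale (SE 0.08, limma adjusted p = 0.010, 0.016 without the block), a 1.35-fold difference. Probe set 1438761_a_at read 11.04, 11.06, 10.85 and 10.76 in the controls and 10.78, 10.56, 10.40 and 10.48 with rTFF2, lower in every mouse, and fell by 0.37 (SE 0.07, limma adjusted p = 0.012). This call was lost in 5 of 15 alternatives (adjusted p 0.0030 to 0.71), among them without mouse 3 (0.055). The third, 1427364_a_at, lay near 4.6 and differed by -0.04 (limma adjusted p = 0.79). The 2 brighter probe sets fell by similar amounts, and the third, far dimmer, did not follow them. Probe sets of a gene can read different transcript ends, which was not tested here.

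The 3′ minus 5′ signal of *Actb* differed between the groups, at 0.53 ± 0.09 in the controls and 0.70 ± 0.05 with rTFF2 (SD, n = 4, two-sided exact permutation p = 0.029, the smallest that 70 splits allow). The same measure of *Gapdh* overlapped between the groups, at 0.22 ± 0.07 and 0.26 ± 0.04 (SD, n = 4, two-sided exact permutation p = 0.40). Both permutations took no account of the pairing by mouse. An exact permutation by 16 exchanges within mice cannot give a p below 0.125. With the *Actb* measure as a covariate beside the block the *Odc1* difference on 1437711_x_at was -0.21 and did not pass (limma adjusted p = 0.51, with a range of 0.0013 to 0.55 over 16 alternatives). On 1438761_a_at it was -0.26 and did not pass either (limma adjusted p = 0.41). Over the whole array 1588 probe sets passed in that fit, in place of 5811. The *Actb* measure did not overlap between the groups, so that fit cannot separate it from rTFF2.

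The antizyme *Oaz1* (1436292_a_at), the inhibitor of *Odc1*, stood at 12.96 to 13.13 in the controls and 12.95 to 13.09 with rTFF2, with a difference of -0.04 (95% interval -0.20 to 0.11, limma adjusted p = 0.70). The pair *Odc1* minus *Oaz1* differed by -0.39, lower in 4 of 4 mice, with a two-sided exact permutation p of 0.029 and 0.11 after adjustment over the 4 pairs computed. *Srm* (1421260_a_at), spermidine synthase, read 8.76, 8.80, 8.05 and 8.17 in the controls and 7.98, 8.44, 8.08 and 8.11 with rTFF2. Its difference of -0.29 (95% interval -0.61 to 0.03, limma adjusted p = 0.16) did not pass, with changes of -0.77 and -0.36 in mice 1 and 2 and of 0.03 and -0.06 in mice 3 and 4.

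*Sat1* (1420502_at), the acetyltransferase of polyamine breakdown, read 12.00, 12.13, 12.22 and 12.41 in the controls and 12.16, 12.22, 12.20 and 12.33 with rTFF2. The difference of 0.04 (95% interval -0.13 to 0.21, limma adjusted p = 0.74) did not pass, and its sign turned in 4 of 16 alternatives. The pair *Sat1* minus *Odc1* differed by 0.47, higher in 4 of 4 mice (two-sided exact permutation p = 0.057, adjusted 0.11). The pair *Arg2* minus *Arg1* (-0.50, exact permutation p = 0.94, adjusted 0.94) was higher in 3 mice and lower in mouse 2. The fourth pair, *Nos2* minus *Arg1*, has no value here because *Nos2* was not above background. These splits ignore the pairing by mouse. Exchanging arrays within mice gave an exact permutation p of 0.125 for both *Odc1* pairs, the smallest that 16 exchanges of 4 mice allow, so that design cannot reach 0.05.

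**Figure D3:**
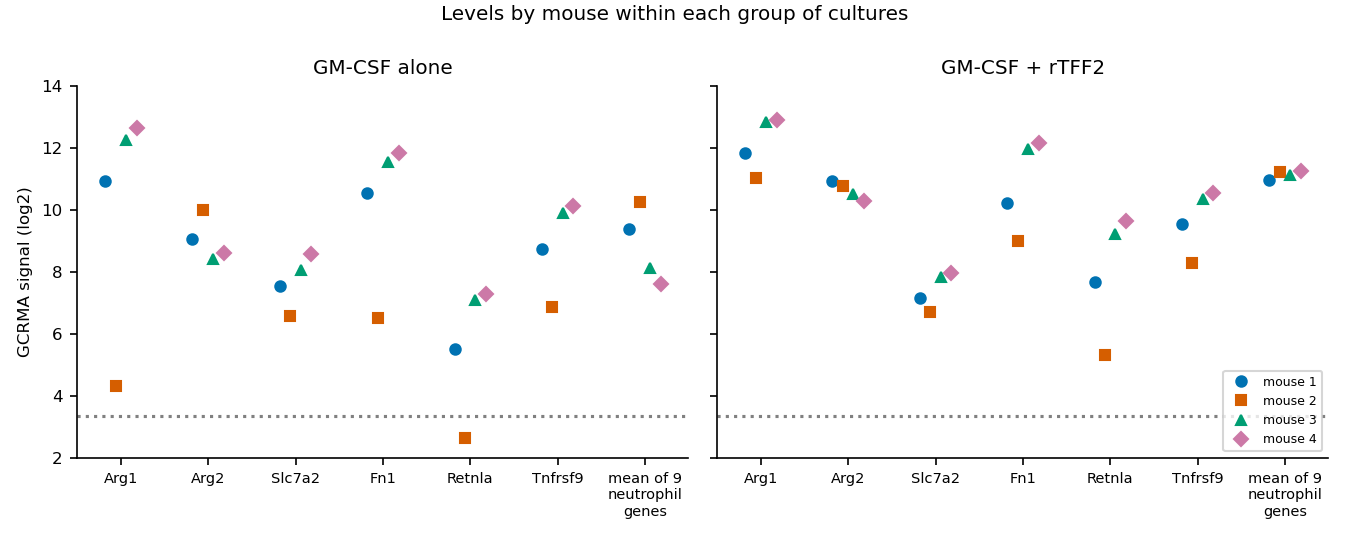
GCRMA signal (log2) by mouse in the control (left) and rTFF2 (right) cultures for *Arg1*, *Arg2* (1438841_s_at), *Slc7a2* (1422648_at), the 3 genes most like *Arg1*, and the mean of 9 neutrophil genes, with the background level dotted. In the controls mouse 2 is lowest for *Arg1*, *Slc7a2*, *Fn1*, *Retnla* and *Tnfrsf9* and highest for *Arg2* and the neutrophil genes. *Fn1*, *Retnla* and *Tnfrsf9* were chosen by likeness to *Arg1* on these same arrays.

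The genes most like *Arg1* over the 8 arrays were *Fn1* (fibronectin), *Retnla* (a secreted resistin-like protein) and *Tnfrsf9* (a receptor of the TNF family), by the root mean square difference of centred log2 values among 7541 genes above background. That difference was 1.18, 1.31 and 1.66. All 3 were lowest in the control culture of mouse 2, which follows from choosing them by likeness to *Arg1* on these same arrays. *Retnla* read 5.51, 2.62, 7.09 and 7.29 in the controls and 7.67, 5.30, 9.22 and 9.64 with rTFF2, and rose by 2.33 (SE 0.10, limma adjusted p = 7.4e-05, 0.20 without the block). *Tnfrsf9* rose by 0.77 (limma adjusted p = 0.014, 0.50 without the block), and *Fn1* differed by 0.73 (adjusted p = 0.23). The genes most like *Nos2*, *Ccdc90b*, *Oxnad1* and *Mansc1*, matched a background signal.

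Marker genes of several cell types differed between the groups, and in the controls the neutrophil genes were highest in mouse 2. All 6 myeloid markers were above background, with lysozyme (*Lyz2*) the brightest at a mean of 14.06 in the controls, and *Itgam*, which encodes CD11b, averaged 12.35. Over all genes 14.5% were higher and 13.3% lower with the block. Of 9 neutrophil genes, 9 were higher with rTFF2 (8 without the block). The brightest, the calcium-binding *S100a8*, rose by 0.38 (limma adjusted p = 0.043). The mean signal of the 9 genes in the controls was 9.37, 10.24, 8.13 and 7.62 in mice 1 to 4. Their summed linear signal was 23987 to 52702 in the controls and 62637 to 74140 with rTFF2.

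Mast cell and basophil genes rose in 7 of 7 (6 without the block), from sums of 191 to 495 to sums of 4245 to 7812. The brightest, the basophil protease *Mcpt8*, rose by 6.18 (SE 0.38, limma adjusted p = 1.9e-04). Of 9 genes of MHC class II and dendritic cells, 8 fell with and without the block, from sums of 27664 to 35802 down to 7924 to 11534. The brightest, the antigen-presenting *H2-Aa*, fell by 1.46 (SE 0.12, limma adjusted p = 4.0e-04). Of 8 genes of alternatively activated macrophages, 4 rose and 2 fell, and without the block 2 rose and 2 fell. Over all genes the shares with the block were 14.5% higher and 13.3% lower. *Chil3*, the brightest, differed by 0.42 (limma adjusted p = 0.12), *Retnla* and *Mrc1* rose, the latter by 1.74, and *Mgl2* and *Clec10a* fell by 2.55 and 2.60, the last 3 named after their values were seen. T and NK cell genes (0 of 8) and B cell genes (0 of 5) were not above background, *Cd8a* and *Cd79b* being their brightest, and neither were erythroid genes but *Tfrc* (1 of 4) or stromal and endothelial genes but *Pecam1* (1 of 9). The part of these cell types in the *Arg1*, *Arg2*, *Slc7a2* and *Odc1* values was not tested, and fewer cells of a type cannot be told apart from less RNA per cell in such bulk samples.

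Of 16 measured genes of the urea cycle, ornithine and proline, 4 fell and 0 rose by limma (1 rose and 5 fell at an unadjusted p under 0.05). The largest fall was of creatine kinase *Ckb*, listed as a creatine gene and not an enzyme of these routes. It fell by 3.05 on the log2 scale (SE 0.20, limma adjusted p = 2.4e-04). *Aldh18a1*, which starts proline synthesis, fell by 0.68 (adjusted p = 0.0079), ornithine aminotransferase *Oat* by 0.41 (0.0089) and argininosuccinate lyase *Asl* by 0.27 (0.044). The median of the list was -0.13, beside -0.03 over all genes, of which 27.7% passed. Only 8 of the 16 lay above background.

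Among 10 genes of nitric oxide synthesis and its regulation, 1 rose and 2 fell, near the shares over all genes (14.5% higher, 13.3% lower), and without the block 0 rose and 1 fell. *Pts*, of tetrahydrobiopterin synthesis, rose by 0.44 (limma adjusted p = 0.0090, 0.054 without the block), and the arginine methyltransferases *Prmt1* and *Prmt5* fell by 0.63 (0.0067) and 0.27 (0.038, 0.12 without the block). Of 10 further polyamine genes, 3 rose and 2 fell, beside the same shares over all genes. The lysosomal polyamine exporter *Atp13a2* rose by 1.24 (limma adjusted p = 1.2e-04), *Slc3a2* by 0.61 (0.0019) and the antizyme *Oaz2* by 0.43 (0.016, 0.094 without the block). *Ahcy* and *Mtap*, which handle the methyl donor's by-products, fell by 0.98 (0.0023) and 0.48 (0.0047). None of 3 hypusination genes passed by limma, nor at an unadjusted p under 0.05.

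**Figure D4:**
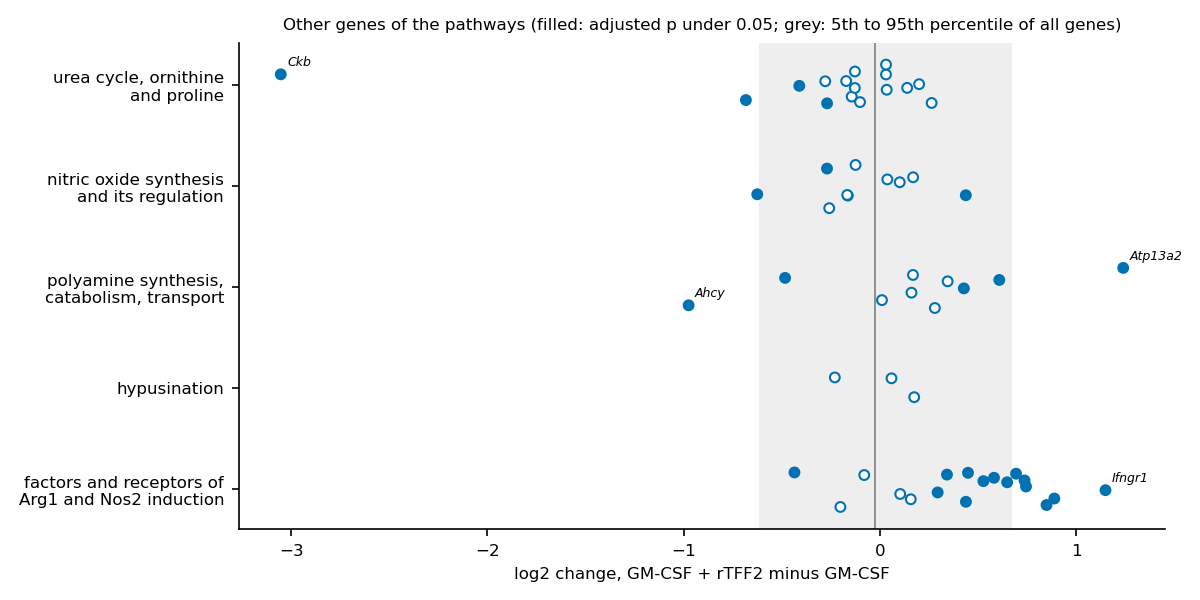
Log2 change (rTFF2 cultures minus control cultures) of every measured gene of each pathway list, filled where limma's adjusted p was under 0.05, with the median of all genes as a line and their 5th to 95th percentiles, -0.61 to 0.66, in grey. Of the induction list, 13 of 18 rose, and *Ckb*, a creatine kinase placed in the urea cycle list, is the lowest point at -3.05.

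Of 18 genes listed as transcription factors and receptors of *Arg1* and *Nos2* induction, 13 rose and 1 fell, with a median of 0.49. Over all genes 14.5% were higher and 13.3% lower, with a median of -0.03. Of the 18, 17 lay above background, but the shares over all genes also count genes at background. The list was chosen with earlier results of these data known. The interferon-gamma receptor chains *Ifngr1* and *Ifngr2* rose by 1.15 (SE 0.07, limma adjusted p = 1.4e-04) and 0.85 (4.7e-04). Toll-like receptors *Tlr2* and *Tlr4* rose by 0.89 (5.7e-04) and 0.74 (0.0011), the interleukin-4 receptor *Il4ra* by 0.69 (9.1e-04), and the factors *Stat3*, *Hif1a* and *Irf1* by 0.65 (0.0014), 0.58 (0.0031) and 0.53 (0.0036). The 1 that fell, *Pparg*, by 0.44 (limma adjusted p = 0.0054, 0.41 without the block), was named after its values were seen. With the *Actb* difference as a covariate 6 rose and 0 fell, where 1588 probe sets passed over the whole array in place of 5811.

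**Figure D5:**
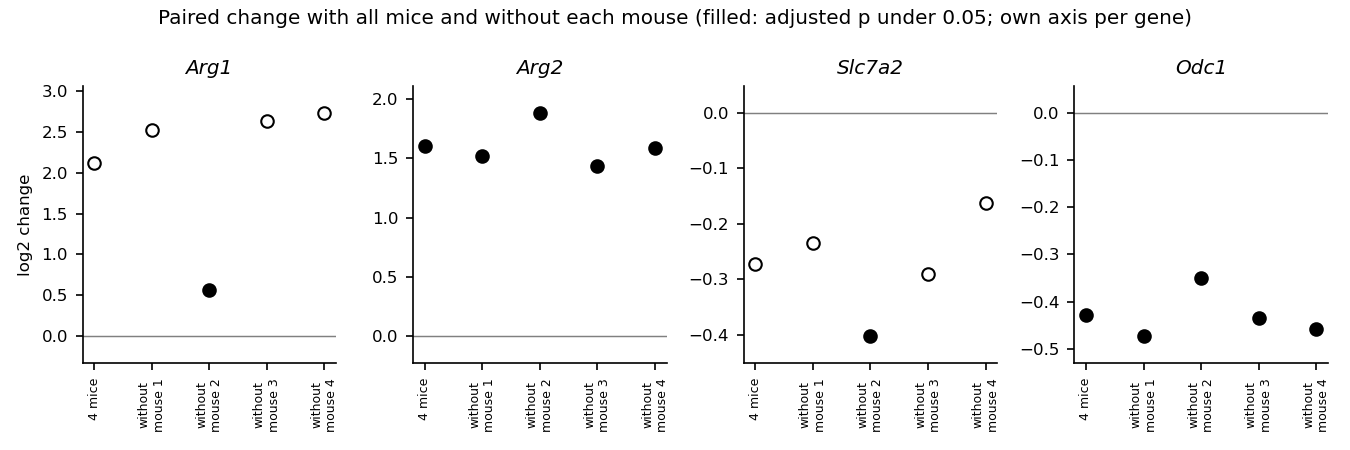
Log2 change of the brightest *Arg1*, *Arg2*, *Slc7a2* and *Odc1* probe sets with 4 mice and without each mouse in turn (limma with the mouse as a block, filled where the adjusted p was under 0.05, each panel with its own axis). *Arg1* moves from 2.11 to 0.57 without mouse 2, and *Arg2* stays above 0 in every case.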

How the data were processed

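Arrays of 8 cultures of CD11b+Gr-1+ cells from 4 mice were analysed, 4 controls with GM-CSF and 4 with rTFF2 added. The authors deposited GCRMA signals on the log2 scale. GCRMA subtracts background by probe sequence and normalizes arrays by quantiles, so a shift shared by all transcripts is removed. Its version was 2.30.0, with affy 1.36.0, in the submitters' processing notes. Groups and mouse numbers came from the sample labels. Each mouse gave cells to both of its cultures, per the study's methods, and its number therefore pairs them. Deviations from the group means correlated at 0.05, 0.54, 0.31 and 0.39 between the cultures of mice 1 to 4, and at -0.54 to 0.34 between different mice (13174 probe sets).

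The values were not renormalized. Of 22690 probe sets, 64 control sets were left out. Gene symbols came from the platform annotation (20380 probe sets with 1 symbol, 691 with several, 1555 with none) and 29 identifiers were not found in the RefSeq table. Promoters came from RefSeq for GRCm38.p6, which held 3 of the 8 genes. The differences were tested with limma 3.58.1 (lmFit, eBayes) in R 4.3.3 with the mouse as a block, and Benjamini-Hochberg adjustment over 22626 probe sets at 0.05. In lists a gene was read on its probe set with the highest mean. Single values were tested by exact permutation over the 70 splits of the arrays and, for gene pairs, also by the 16 exchanges within mice. The number of arrays limits the precision. Every member probe set is named, with, of each pathway list, every gene past the threshold where 8 or fewer passed and otherwise the 8 with the smallest adjusted p, the brightest marker of a list and the 3 genes most like *Arg1* and *Nos2*. The members and lists were chosen with earlier results of these data known. Alternatives were no block, leaving out each mouse, quantile normalization, median centring, array weights, an offset of 32, a filter on dim probe sets, trended and robust eBayes, a threshold of 0.01, the mean of a gene's probe sets and an *Actb* covariate. Leaving out mouse 2 without the block, and the covariate without the block, were added after seeing the data. The test was tried on simulated data first.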

Additional observations from a re-analysis of the deposited data

How the results depend on the processing

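The *Arg2* rise kept its direction and its call under every alternative, with log2 changes of 1.44 to 2.61. Without the replicate block 2 member probe sets were lower, in place of 4, 0 nitric oxide genes rose and 1 fell, and 0 induction factors and receptors fell, with 4927 probe sets passing in place of 5811, and the block changed no other count by over 1.5 times. Leaving out each mouse in turn, 2 to 3 member probe sets were higher and 2 to 4 lower, 3609 to 5006 probe sets passed, 1 nitric oxide gene fell, and 2 to 4 polyamine genes and 9 to 12 factors rose. Fewer mice are fitted there. The pair *Arg2* minus *Arg1* ranged from -1.19 to 1.31, the latter without mouse 2. *Sat1* ranged from -0.0040 (without mouse 1) to 0.076 and was -0.0095 with median centring, and *Odc1* 1427364_a_at ranged from -0.13 to 0.026 (without mouse 3) and was 0.0060 without mouse 1. With median centring 2 factors fell. With an offset of 32, 2 member probe sets were lower and 2 nitric oxide genes higher, and with trended and robust eBayes 1 nitric oxide gene fell. At a threshold of 0.01, 0 member probe sets were lower, 1 nitric oxide gene fell and 2906 probe sets passed. With the mean of a gene's probe sets, 1 member was higher and 2 lower, 1 urea cycle gene and 2 nitric oxide genes rose, 2 factors fell and 3504 genes passed. With the *Actb* covariate and the block, 1 member probe set was lower, *Arg1* was -2.68 and *Sat1* -0.068, 1 urea cycle gene fell, 0 nitric oxide genes rose and 1 fell, 1 polyamine gene fell, 6 factors rose and 0 fell, and 1588 probe sets passed. With the covariate and no block, chosen after seeing the data, 0 member probe sets were lower, *Arg1* was -2.77, *Sat1* -0.11, *Srm* 0.17 and *Odc1* 1427364_a_at 0.050, 2 urea cycle genes, 1 nitric oxide gene and 1 polyamine gene fell, 6 factors rose and 0 fell, and 2295 probe sets passed. With no block and without mouse 2, also chosen after seeing the data, 1 member probe set was lower, 1 nitric oxide gene fell and 0 factors fell. Exchanging arrays within mice, a replicate block for the gene pairs, was added after seeing the data. It could call no pair, since 16 exchanges cannot give an exact permutation p below 0.125. The causes were not tested. *Nos2* had no value under the filter on dim probe sets, no pair with *Nos2* is given, and the pair *Srm* minus *Sms* was not run, since *Sms* had no probe set of its own.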
